A study of Mus musculus with 5 samples.

Results

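Neuronal calcium sensor proteins were examined at the RNA level in astrocyte-enriched cells of the mouse amygdala. The members were the 6 genes Hpcal1, Hpca, Hpcal4, Ncald, Vsnl1 and Ncs1, found by symbol among the 35976 genes of the deposited count table. They were chosen by the measured counts, because Hpcal1 separated the DTx from the control columns with little spread, so its difference between the groups is given as a description and supports nothing. The same holds for the other members in this contrast, and their p-values are printed only to place them in the fit over all genes. All 6 passed the low-count filter of the count test, which kept 15532 genes.

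The DTx-labelled libraries, 5A, 6A and 7A, came from mice given diphtheria toxin, and the saline libraries, replicates 1 and 2, from mice given saline. Both groups had the genotype Ccr2::CreERT2/+;DTR/+, which joins a tamoxifen-inducible Cre driven from Ccr2 to a receptor for the toxin, received tamoxifen, and went through 18 days of tube restraint, then fear conditioning and extinction. The model therefore targets Ccr2-expressing cells, and the controls carry both alleles. No source used here gives the age of the mice. Astrocytes were taken from papain-digested amygdala on anti-ACSA-2 beads.

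Total counts were 15961220 to 18708138 in the DTx-labelled and 20577672 and 23720299 in the saline libraries. Ccr2 had 54, 4 and 4 counts in libraries 5A, 6A and 7A and none in either saline library, so its direction ran against the labelled depletion. The summed level of 4 Y-linked genes (Ddx3y, Eif2s3y, Uty and Kdm5d) was 185.4 to 201.2 CPM (counts scaled to library size) in the DTx-labelled and 0.185 and 0.0897 CPM in the saline libraries, and Xist was at 0 to 0.159 CPM and at 172.6 and 128.9 CPM. The libraries did not all group by label: chi-square per degree of freedom, a measure of how far the counts of a pair lie apart, was 17.7 between library 7A and saline replicate 2, and 60.7 and 58.4 between 7A and libraries 5A and 6A. The lowest value of any pair was 14.2, so none was counted as a repeat. In every comparison below, treatment and sex-chromosome state cannot be told apart. The summed level of the 13 astrocyte markers was 32813 to 37984 CPM in the DTx-labelled and 32071 and 33311 CPM in the saline libraries. The 8 oligodendrocyte markers summed to 41596 to 87811 CPM and to 58232 and 89599 CPM, above the astrocyte markers in every library.

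Neuronal calcium sensors are small EF-hand proteins that bind calcium at low concentrations, and most carry a myristoyl group at the N terminus. In many of them, calcium binding exposes this lipid and moves the protein to membranes, where it acts on ion channels, receptors, lipid kinases and vesicle traffic. They are best known from neurons. Hippocalcin, encoded by Hpca, is prominent in hippocampal pyramidal cells, Hpcal1 and Hpcal4 encode hippocalcin-like proteins, Ncald encodes neurocalcin delta, Vsnl1 encodes visinin-like protein 1 (VILIP-1), and Ncs1 encodes the mammalian frequenin, a regulator of phosphatidylinositol 4-kinase beta and of transmitter release.

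The genes lie on GRCm38 (GENCODE M21 annotation) as protein-coding loci on 4 chromosomes. Hpcal1 spans chr12:17690856-17791933 on the plus strand and Vsnl1 chr12:11325242-11436613 on the minus strand. Hpca spans chr4:129111570-129122036 on the minus strand and Hpcal4 chr4:123183227-123194701 on the plus strand. Ncald spans chr15:37366175-37792570 on the minus strand and Ncs1 chr2:31245823-31295989 on the plus strand.

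The coding regions were of nearly equal length, 193 codons in Hpcal1, Hpca and Ncald, 191 in Hpcal4 and Vsnl1, and 190 in Ncs1. Hpcal1 and Hpca were the closest pair, with 86.0% identical bases in a global alignment of the coding sequences. Hpcal4 and Vsnl1 followed with 82.4%, and Hpcal1 and Ncald with 80.4%. Ncs1 was the most distant member, at 63.8% to 65.6% identity to the others. The longest identical run was 38 bases between Hpcal1 and Hpca and 46 bases between Hpca and Ncald. Reads that lie within such runs cannot be assigned to 1 gene, and no source used here says how the counting treated them. In the annotation, exons of Hpca shared 57 bases with Tmem54 on the opposite strand. Exons of Ncald shared 347 bases with the antisense gene Gm28221 and 286 bases with Gm49397 on the same strand. Whether counting used the strand is not given either, and the overlap with Gm49397 holds in either case. The values of Hpca and Ncald are therefore the less certain ones. No exon overlap was found for Hpcal1, Hpcal4, Vsnl1 and Ncs1.

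The promoters of Hpcal1, Vsnl1, Hpca and Hpcal4 are shown because these were the 4 members whose groups did not overlap. Each is a RefSeq window of 300 bases on GRCm38.p6, from 250 bases before to 50 after a start, written 5′ to 3′ on the gene's strand: chr12:17690559-17690858 (plus), chr12:11436529-11436828 (minus), chr4:129121698-129121997 (minus) and chr4:123183254-123183553 (plus). Of the 3 windows listed for Hpca and the 2 for Vsnl1, the one nearest to the GENCODE gene start is given. The RefSeq start lay 47 bases from the GENCODE gene start for Hpcal1, 35 for Vsnl1, 289 for Hpca and 277 for Hpcal4. The windows of Hpca and Hpcal4 therefore lie wholly inside the GENCODE gene spans, while those of Hpcal1 and Vsnl1 include the GENCODE start. Counts of motifs and CpG are not like for like between them. Capitals mark GC boxes (GGGCGG on either strand).
Hpcal1: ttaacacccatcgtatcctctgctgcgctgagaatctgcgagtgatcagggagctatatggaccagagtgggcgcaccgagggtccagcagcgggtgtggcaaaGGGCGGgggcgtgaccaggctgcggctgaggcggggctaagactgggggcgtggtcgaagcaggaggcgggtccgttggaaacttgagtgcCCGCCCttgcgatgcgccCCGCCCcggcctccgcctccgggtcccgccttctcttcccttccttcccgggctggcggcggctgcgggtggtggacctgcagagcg
Vsnl1: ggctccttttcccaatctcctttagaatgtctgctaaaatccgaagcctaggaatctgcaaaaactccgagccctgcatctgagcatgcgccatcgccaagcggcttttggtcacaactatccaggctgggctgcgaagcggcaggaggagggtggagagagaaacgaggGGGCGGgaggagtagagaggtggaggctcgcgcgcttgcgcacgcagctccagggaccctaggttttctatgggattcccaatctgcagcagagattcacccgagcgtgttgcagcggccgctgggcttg
Hpca: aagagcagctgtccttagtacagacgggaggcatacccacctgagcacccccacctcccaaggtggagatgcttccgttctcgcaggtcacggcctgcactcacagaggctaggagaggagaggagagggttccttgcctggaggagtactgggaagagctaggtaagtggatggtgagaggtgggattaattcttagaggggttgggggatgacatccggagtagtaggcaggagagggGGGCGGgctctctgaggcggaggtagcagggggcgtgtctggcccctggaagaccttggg
Hpcal4: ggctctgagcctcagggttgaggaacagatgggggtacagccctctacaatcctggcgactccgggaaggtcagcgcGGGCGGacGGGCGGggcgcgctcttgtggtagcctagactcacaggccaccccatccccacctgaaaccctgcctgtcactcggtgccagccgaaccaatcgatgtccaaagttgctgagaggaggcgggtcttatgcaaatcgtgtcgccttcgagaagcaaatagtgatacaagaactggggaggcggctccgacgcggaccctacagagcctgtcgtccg

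The Hpcal1 window held 3 GC boxes, that of Hpcal4 held 2, and those of Vsnl1 and Hpca held 1 each, and 35.7% of all 32851 RefSeq promoter windows held at least 1. The Ncs1 window held 3 GC boxes, and Ncald is named only. Other motifs searched on both strands were the CRE core TGACG (in 20.8% of all windows), the GAS element TTCNNNGAA (8.30%), the ISRE core, which is GAAA, 2 free bases and GAAA (3.44%) and the TATA box TATAAA (13.6%). None of these letters occurred in the printed windows. Of the windows not printed, the second of Hpca held 4 GC boxes and 27 CpG dinucleotides, and the second of Vsnl1 held no GC box and 1 match to the ISRE core. CpG dinucleotides numbered 27 in the Hpcal1 window, 22 in that of Hpcal4, 18 in that of Vsnl1 and 8 in that of Hpca, with a median of 7 over all windows.

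Hpcal1 was at 15.3, 14.7 and 13.6 CPM in DTx-labelled libraries 5A, 6A and 7A, against 6.79 and 7.08 CPM in saline replicates 1 and 2. Every DTx-labelled library lay above both saline libraries, and the lowest of them was 1.92 times the higher saline value. These levels rested on 236 to 290 counts and on 147 and 158 counts. The mean was 14.5 ± 0.865 CPM in DTx-labelled libraries (SD, n = 3) and 6.94 ± 0.209 CPM in saline (SD, n = 2), and the log2 fold change was 1.07 ± 0.179 (SE). With edgeR's quasi-likelihood test and Benjamini-Hochberg adjustment over all genes, its adjusted p was 0.734, above the threshold of 0.05. Across the 13 alternative settings its log2 fold change stayed between 1.025 and 1.113. Its adjusted p was 0.00157 with DESeq2 and 0.0324 with edgeR's likelihood ratio test. The lowest value under the other settings was 0.0979, without library 7A.

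Hpca, the closest relative of Hpcal1 in sequence, stood at 15.3, 16.8 and 14.8 CPM in DTx-labelled libraries 5A, 6A and 7A, against 6.65 and 10.5 CPM in saline replicates 1 and 2. The groups did not overlap, and the saline libraries differed more from each other than the DTx-labelled ones did. Its mean was 15.6 ± 1.04 CPM (SD, n = 3) against 8.57 ± 2.72 CPM (SD, n = 2), with a log2 fold change of 0.86 ± 0.236 (SE, edgeR adjusted p = 0.742). Without saline replicate 1 the log2 fold change was 0.57.

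Vsnl1 stood at 48.9, 53.2 and 49.0 CPM in DTx-labelled libraries 5A, 6A and 7A, against 30.5 and 29.2 CPM in saline replicates 1 and 2. The lowest DTx-labelled library was 1.61 times the higher saline one, and the spread within each group was close to that of Hpcal1, with coefficients of variation of 4.86% and 3.05% for Vsnl1 and of 5.95% and 3.02% for Hpcal1 in DTx-labelled and saline libraries. The log2 fold change of Vsnl1 was 0.76 ± 0.134 (SE), from means of 50.4 ± 2.45 CPM (SD, n = 3) and 29.8 ± 0.911 CPM (SD, n = 2), with an edgeR adjusted p of 0.734. It was 0.71 to 0.79 under the 13 alternative settings, with an adjusted p of 0.00157 under DESeq2 and of 0.0107 under the likelihood ratio test.

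Hpcal4 had the highest fold change of the members and the highest coefficient of variation among the DTx-labelled libraries, at 51.7%. It was at 59.8, 115.3 and 43.5 CPM in DTx-labelled libraries 5A, 6A and 7A, against 33.8 and 27.0 CPM in saline replicates 1 and 2. Library 6A stood far above the others, and library 7A was 1.29 times saline replicate 1. The means were 72.8 ± 37.7 CPM (SD, n = 3) and 30.4 ± 4.78 CPM (SD, n = 2), with a log2 fold change of 1.26 ± 0.426 (SE, edgeR adjusted p = 0.742). Without library 6A the log2 fold change was 0.76.

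Ncald and Ncs1 overlapped between the groups. Ncald was at 86.9, 103.8 and 86.9 CPM in DTx-labelled libraries 5A, 6A and 7A, against 80.4 and 97.5 CPM in saline replicates 1 and 2, and its log2 fold change of 0.057 ± 0.161 (SE, edgeR adjusted p = 0.947) was within its error. Without library 6A it was -0.036 and without saline replicate 1 it was -0.079. Ncs1 was at 276.3, 416.9 and 305.3 CPM across libraries 5A, 6A and 7A, against 298.6 and 172.2 CPM, so that saline replicate 1 lay above library 5A. Its log2 fold change was 0.50 ± 0.291 (SE, edgeR adjusted p = 0.778), and it was 0.95 when saline replicate 1 was left out, 0.30 without library 6A and 0.16 without saline replicate 2.

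**Figure D1:**
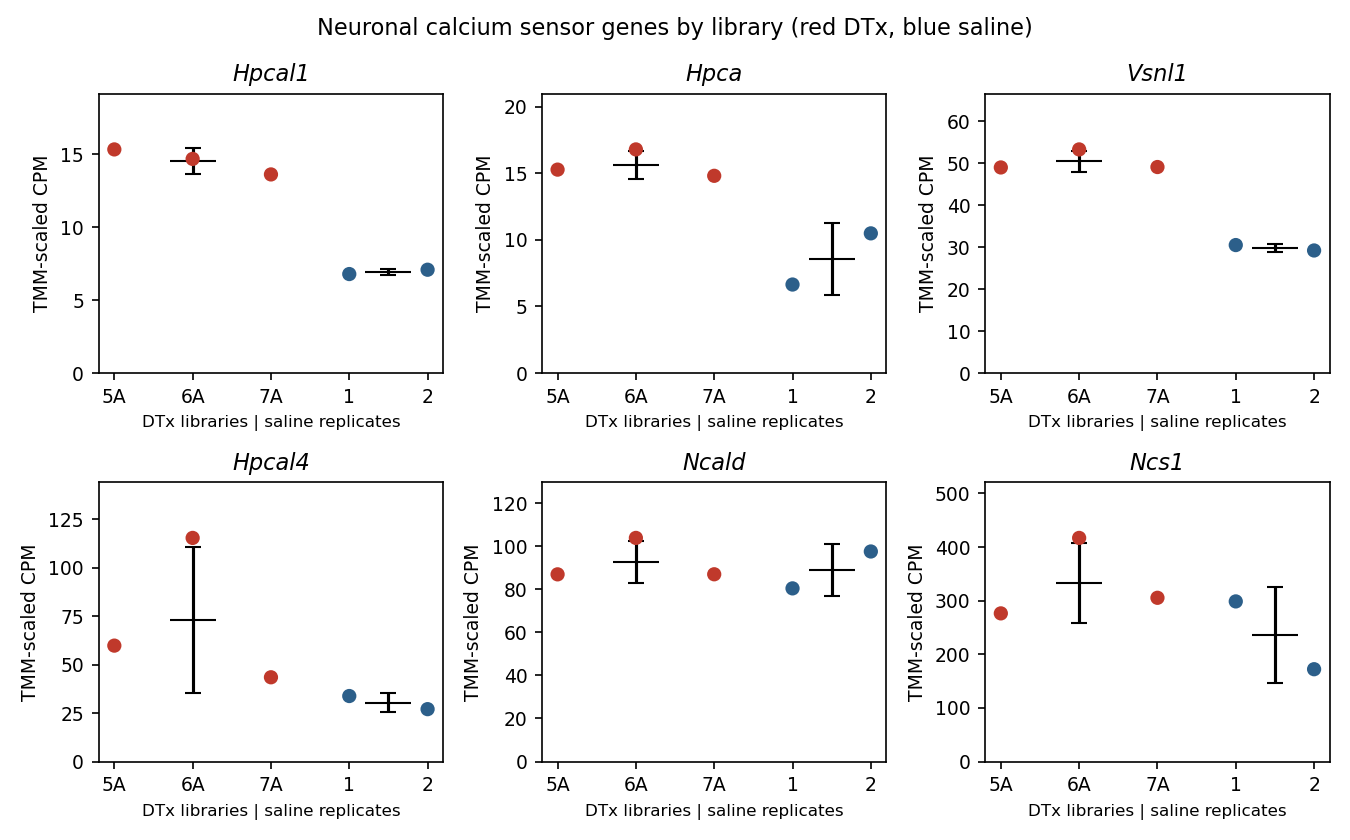
TMM-scaled CPM of the 6 members in each library, with DTx-labelled libraries in red at the left and saline replicates in blue at the right of each panel, and the mean ± SD of each group in black. Hpcal1, Hpca, Vsnl1 and Hpcal4 show no overlap between the groups, whereas Ncald and Ncs1 overlap.

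Thus 4 of the 6 members were higher in the DTx-labelled libraries without overlap and 0 were lower without overlap, where 12.1% and 8.99% of all genes tested did so. Hpcal1 itself is among the 4 and was picked for this separation, and the members were chosen with these results known, so nothing is read from the count. Of the members 0 passed the adjusted threshold, which 0.0322% of all genes tested passed, all 5 of them the Y-linked genes above and Xist. At an unadjusted p under 0.05, 6.68% of all genes passed in either direction and 4.49% were higher in the DTx-labelled libraries, as were 4 members. Without library 7A the log2 fold changes were 1.113 for Hpcal1, 0.90 for Hpca, 0.78 for Vsnl1 and 1.52 for Hpcal4.

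Summed over the 6 members, the level was 502.5, 720.8 and 513.2 CPM in DTx-labelled libraries 5A, 6A and 7A, against 456.7 and 343.5 CPM in saline replicates 1 and 2. Ncs1 made up 55.0%, 57.8% and 59.5% of it in the DTx-labelled libraries, against 65.4% and 50.1% in the saline ones. The other 5 members together were at 226.2, 303.8 and 207.9 CPM, against 158.1 and 171.3 CPM. Neither this sum nor that of all 6 members overlapped between the groups. Both sums include Hpcal1, which was picked for this separation, so nothing is read from them.

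Per kilobase of exon, Ncs1 was the most abundant member, with a mean of 63.2 CPM per kb over the 5 libraries, and it lay above Vsnl1 (21.6 CPM per kb) in every library. Ncald and Hpcal4 followed at 10.6 and 10.5 CPM per kb on average. Their ranges overlapped in the DTx-labelled libraries, with 10.1 to 12.1 CPM per kb for Ncald and 8.14 to 21.6 CPM per kb for Hpcal4, but not in saline, with 9.37 and 11.4 CPM per kb for Ncald and 6.33 and 5.06 CPM per kb for Hpcal4. Hpcal4 and Hpcal1 (6.78 CPM per kb on average) also overlapped in the DTx-labelled libraries and not in saline, and Hpca was lowest at 4.38 CPM per kb. The order depends on the gene model: with the length of the longest coding transcript in place of all exons, Ncald was at 24.4 CPM per kb, above Vsnl1 at 22.2, and Hpcal1 and Hpca were at 7.53 and 6.93 CPM per kb.

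**Figure D2:**
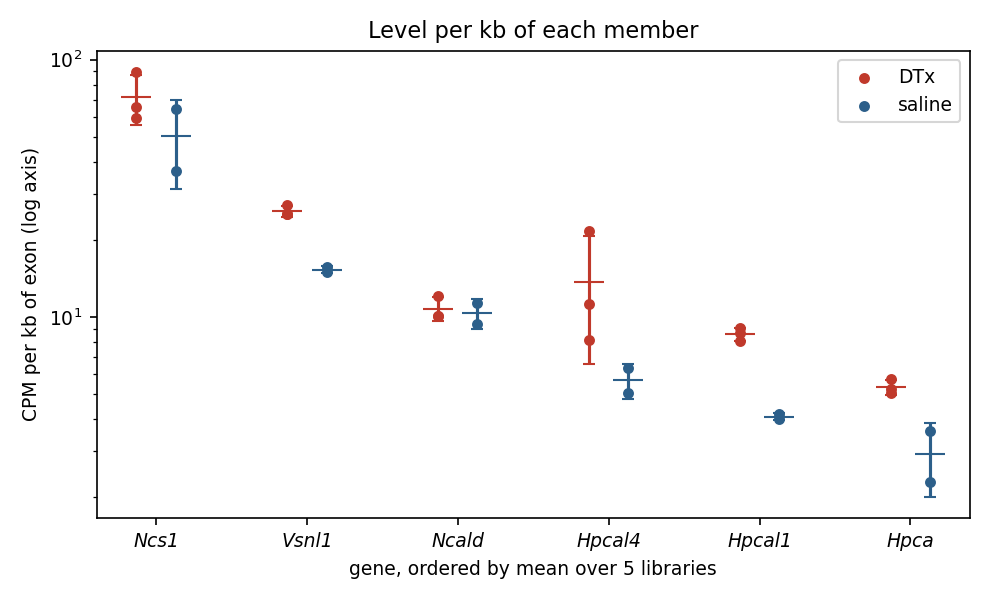
Level of each member in CPM per kb of exon on a log axis, with every library as a point, DTx-labelled libraries in red left of saline in blue, and mean ± SD for each group. Ncs1 stands highest in every library, and the DTx-labelled and saline points of Ncald overlap.

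Markers of neurons, the cells in which these proteins are best known, were also higher in the DTx-labelled libraries as a sum. Their summed level over 12 genes was 558.2, 674.4 and 619.1 CPM in DTx-labelled libraries 5A, 6A and 7A, against 491.1 and 431.8 CPM in saline replicates 1 and 2 (two-sided exact permutation p = 0.1, the smallest that 10 regroupings allow). Of the 12 markers 11 had a log2 fold change above 0, with a median of 0.56, against a median of 0.0024 over all genes tested. The groups did not overlap for 5 of them, all with DTx higher, where 12.1% of all genes tested did so. Of the 12 markers 0 passed the threshold. Snap25, a synaptic fusion protein, was at 138.0 ± 12.2 CPM (SD, n = 3) against 121.1 ± 0.339 CPM (SD, n = 2), and Gap43, a growth cone protein, at 124.3 ± 20.6 against 73.98 ± 18.6 CPM. Nefl, the light neurofilament chain, overlapped, at 73.4, 96.9 and 125.5 CPM across libraries 5A, 6A and 7A, against 100.2 and 71.4 CPM. In bulk RNA, fewer cells of a type and less RNA per cell cannot be told apart.

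Inhibitory neuron markers also stood apart, at 47.4, 109.8 and 60.4 CPM across libraries 5A, 6A and 7A, against 31.9 and 41.0 CPM in saline replicates 1 and 2 (exact permutation p = 0.2). All 7 tested genes of that list had a log2 fold change above 0, 4 of them without overlap. Over all genes tested, 50.4% were above 0 and 12.1% were higher without overlap. The 7 excitatory neuron markers overlapped, at 144.9, 223.9 and 78.04 CPM, against 104.8 and 59.7 CPM (exact permutation p = 0.4). Library 6A was the highest for both lists, for the summed neuron markers of all types and for every member except Hpcal1, which was highest in library 5A. Microglia markers summed to 250.6 to 426.8 CPM in the DTx-labelled and 102.5 and 251.4 CPM in the saline libraries. All 10 had a log2 fold change above 0, with a median of 1.003, and 4 of them did not overlap. The shares over all genes tested were again 50.4% and 12.1%. Oligodendrocyte precursor markers summed to 130.1 to 250.5 CPM and to 253.9 and 283.4 CPM. They were lower in the DTx-labelled libraries without overlap (exact permutation p = 0.2). Endothelial and mural markers summed to 39.2 to 45.9 CPM and to 45.6 and 50.9 CPM, with overlap. Ependymal markers summed to 33.1 to 151.8 CPM in the DTx-labelled and 234.0 and 29.2 CPM in the saline libraries, and choroid plexus markers to 13.3 to 93.4 CPM and to 13.4 and 8.92 CPM. Above 0 in log2 fold change were 1 of 6 precursor and 2 of 8 endothelial and mural markers. So were 0 of 8 oligodendrocyte and 0 of 5 ependymal markers, against 50.4% of all genes tested. Lower without overlap were 2 of the precursor and 2 of the endothelial and mural markers, as were 8.99% of all genes tested. Of the endothelial and mural markers 1 was higher without overlap. No marker of these lists had 0 counts in all 5 libraries. The part of the glial and vascular cell types in the members' values was not tested.

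Relative to the neuron markers, Hpcal1 and Vsnl1 were higher in each DTx-labelled library than in both saline libraries. Per 1000 CPM of summed neuron markers, a scaling chosen after seeing the data, Hpcal1 was at 27.5, 21.8 and 21.99 CPM across libraries 5A, 6A and 7A, against 13.8 and 16.4 CPM in saline replicates 1 and 2. The ratio of the means was 1.57 on this scale and 2.10 in CPM. For the summed neuron markers this ratio was 1.34, and for single markers of the list it ran from 0.751 for Nefm to 1.97 for Syt1. The values on this scale therefore depend on the markers summed. The part of neuronal RNA in the members' values was not tested. Vsnl1 was at 87.7, 78.9 and 79.2, against 62.1 and 67.6, with a ratio of means of 1.26 in place of 1.69. Hpcal4 was at 107.1, 171.0 and 70.2, against 68.8 and 62.6, so library 7A was 1.02 times saline replicate 1. Hpca overlapped between groups on this scale, with 23.9 to 27.4, against 13.5 and 24.3. Ncald was at 140.4 to 155.7, below both saline values of 163.7 and 225.8. Ncs1 overlapped in both scalings. In CPM the count without overlap and with DTx higher was 4 of 6, where 12.1% of all genes tested did so, and relative to neuron markers it was 3 of 6, where 2.34% did so. As the members were chosen with this contrast known, nothing is read from either count.

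**Figure D3:**
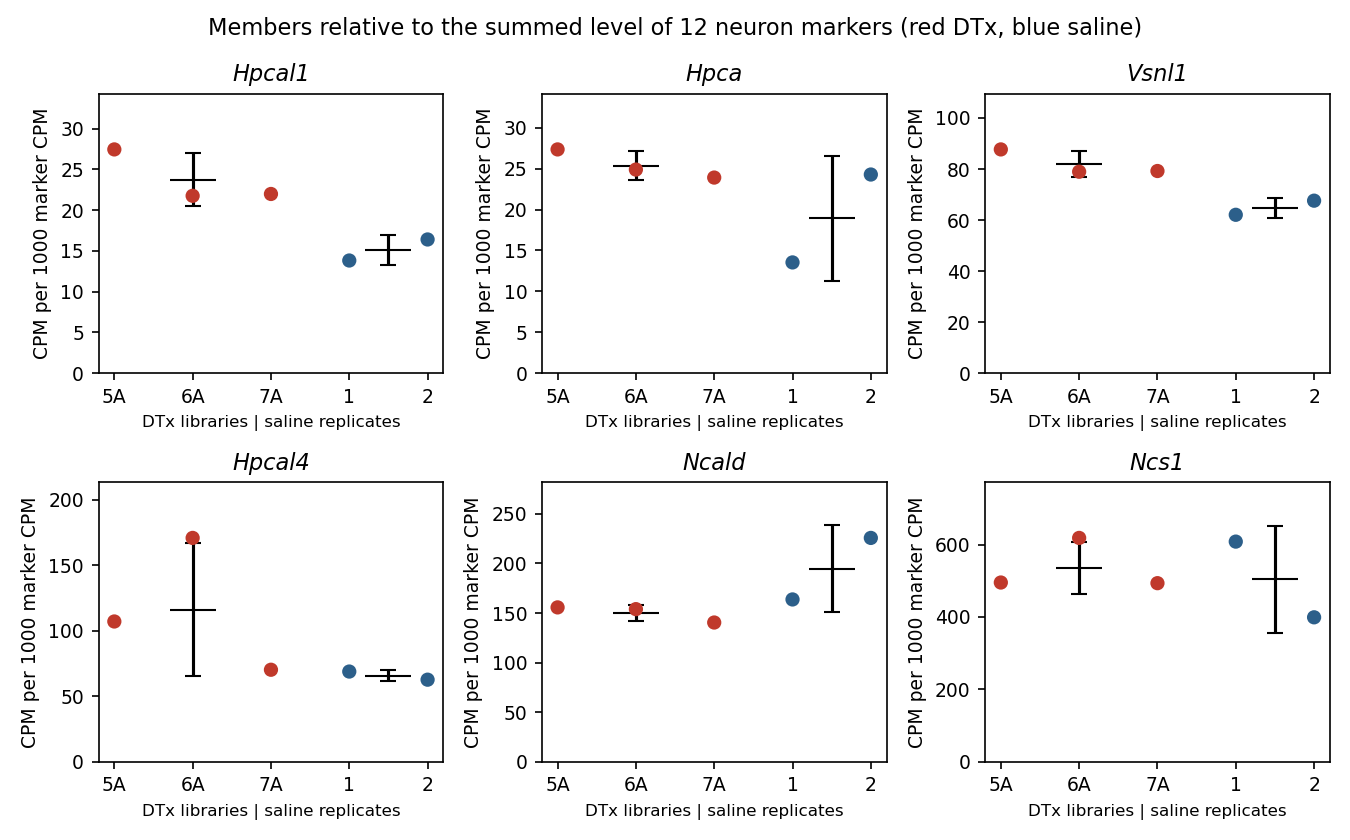
CPM of each member per 1000 CPM of the summed neuron markers of the same library, with DTx-labelled libraries in red at the left, saline replicates in blue at the right and mean ± SD in black. Hpcal1 and Vsnl1 show a gap between the groups on this scale, Hpca overlaps, and Ncald is lower in the DTx-labelled libraries.

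Of the 7 other genes of the wider superfamily, the 4 potassium channel interacting proteins (KChIPs) passed the low-count filter. Of these 4 tested genes 0 passed the threshold in either direction and 4 had a log2 fold change above 0. Their median was 0.42, or 0.22 without library 6A, and 2 of them were higher in the DTx-labelled libraries without overlap. Over all genes tested, 50.4% were above 0, the median was 0.0024, and 12.1% were higher without overlap. Kcnip1 was at 11.5, 14.2 and 11.5 CPM across libraries 5A, 6A and 7A, against 6.97 and 5.74 CPM in saline replicates 1 and 2, with a log2 fold change of 0.96 ± 0.213 (SE, edgeR adjusted p = 0.734). Kcnip3, which encodes the KChIP also known as DREAM and calsenilin, was the most abundant of the KChIPs in CPM, at 181.2, 205.0 and 153.5 CPM, against 128.4 and 147.9 CPM. Its groups did not overlap either, by a narrow margin, and its log2 fold change was 0.38 ± 0.176 (SE, edgeR adjusted p = 0.764). Kcnip4 and Kcnip2 overlapped, with log2 fold changes of 0.46 ± 0.311 and 0.26 ± 0.302 (SE, edgeR adjusted p = 0.794 and 0.863), and that of Kcnip4 was 0.16 without library 6A. The photoreceptor sensors Rcvrn (recoverin), Guca1a and Guca1b were at 0 to 0.269 CPM in all 5 libraries and were not tested.

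Partners of the neuronal calcium sensors went in both directions. Of 20 partners tested, 12 had a log2 fold change above 0 and 8 below, with a median of 0.049. Of all genes tested 50.4% were above 0, with a median of 0.0024. Of the partners 0 passed the threshold in either direction. Without overlap, 6 were higher in the DTx-labelled libraries, Dpp6, Dpp10 and Trpc5 among them, and 2 were lower. Over all genes tested, 12.1% and 8.99% did so. With saline replicate 1 left out the median was 0.44, and with saline replicate 2 left out it was -0.16. Dpp6, an auxiliary subunit of A-type potassium channels that also bind KChIPs, was at 59.7 ± 11.9 CPM in DTx-labelled libraries (SD, n = 3) and 38.6 ± 7.14 CPM in saline (SD, n = 2), with an edgeR adjusted p of 0.742. Its relative Dpp10 was at 5.32 ± 0.886 and 3.26 ± 0.936 CPM (adjusted p = 0.757). Trpc5, a calcium-permeable channel that binds the Ncs1 protein, was at 2.53 ± 0.828 and 1.05 ± 0.472 CPM (adjusted p = 0.742). Kcnq3, a subunit of the M-type potassium channel, was the lower one, at 34.8 ± 6.40 and 46.8 ± 0.0538 CPM (adjusted p = 0.745). Kcnd2, the pore subunit that KChIPs bind, was at 102.1 ± 4.84 and 101.1 ± 14.4 CPM.

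The enzymes that attach myristate to these proteins showed no common direction. Of Nmt1 and Nmt2, the N-myristoyltransferases, and Metap1 and Metap2, the aminopeptidases that remove the initial methionine beforehand, 0 of 4 passed, and the median log2 fold change was -0.016. It was -0.13 with saline replicate 1 left out and 0.24 with saline replicate 2 left out. Nmt1 was at 20.4 ± 0.977 CPM in DTx-labelled libraries (SD, n = 3) and 21.4 ± 5.96 CPM in saline (SD, n = 2), and Nmt2 at 4.68 ± 0.724 and 3.72 ± 1.02 CPM. Metap1 was at 20.96 ± 2.18 and 20.4 ± 3.63 CPM and Metap2 at 131.0 ± 3.98 and 138.9 ± 4.99 CPM, the last without overlap, with edgeR adjusted p of 0.821 to 0.969 for the 4 genes.

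Among 25 other EF-hand calcium-binding proteins, 15 had a log2 fold change above 0 and 10 below, with a median of 0.076, and 0 passed. Of all genes tested 50.4% were above 0, with a median of 0.0024. Cib2, a calcium- and integrin-binding protein, was at 24.8 ± 4.53 CPM in DTx-labelled libraries (SD, n = 3) and 15.2 ± 0.961 CPM in saline (SD, n = 2), with an edgeR adjusted p of 0.742. S100a6 was at 36.5 ± 7.81 and 22.95 ± 4.06 CPM (adjusted p = 0.742), and Caln1, a neuronal calmodulin-like protein, at 14.4 ± 1.66 and 11.001 ± 1.48 CPM (adjusted p = 0.764). Pvalb, the parvalbumin of a class of inhibitory neurons, ran the other way, at 8.57 ± 1.61 and 12.3 ± 2.38 CPM (adjusted p = 0.764). The groups did not overlap for 4 of the 25 with DTx higher and for 2 with DTx lower, where 12.1% and 8.99% of all genes tested did so.

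**Figure D4:**
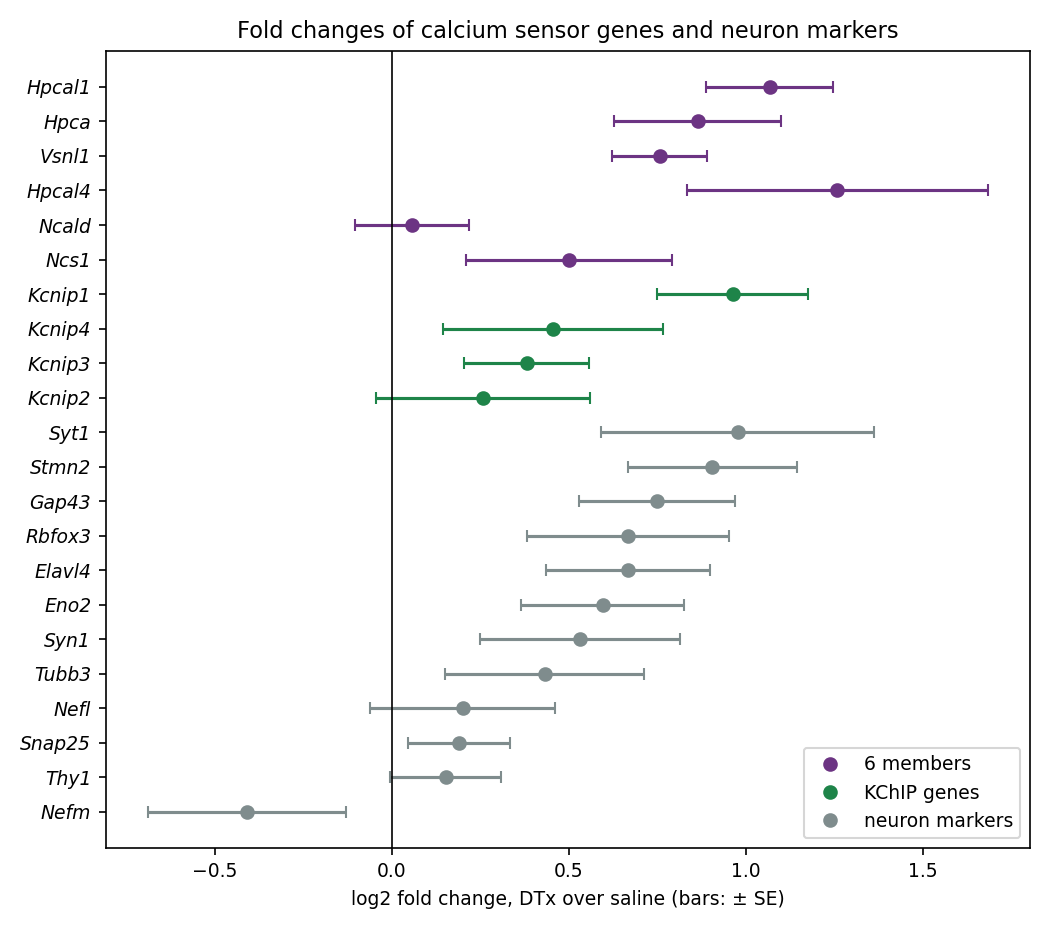
Log2 fold change of the 6 members, the 4 KChIP genes and the 12 neuron markers, DTx-labelled over saline, with bars of ± 1 SE from the edgeR fit. Hpcal4 and Hpcal1 lie at 1.26 and 1.07, Ncald at 0.057, and 11 of the 12 neuron markers lie above 0, with Nefm below.

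The profile of Hpcal1 over the 5 libraries was compared with those of 12620 other genes, by the root mean square difference of log2 CPM after centring each gene on its own mean. These were tested genes with a mean of at least 1 CPM, leaving out those with Gm, LOC, Rik or clone names. The 5 nearest were Gmip, at a difference of 0.080, Gng3 (0.091), Tnfrsf12a (0.095), Chst15 (0.12) and Igdcc3 (0.12). Gng3 encodes a G-protein gamma subunit of neurons and was at 34.04, 36.6 and 30.8 CPM across libraries 5A, 6A and 7A, against 17.1 and 18.6 CPM in saline replicates 1 and 2. Gmip was at 1.96, 1.87 and 1.65 CPM, against 0.693 and 0.852 CPM. Tnfrsf12a encodes the receptor of the cytokine TWEAK and was at 2.96, 2.30 and 2.45 CPM, against 1.20 and 1.21 CPM. Among the members, Vsnl1 was the 19th nearest of these 12620 genes at 0.17 and Hpca the 50th at 0.21. Ncs1, Hpcal4 and Ncald were farther, at 0.43, 0.45 and 0.50. Gmip rested on 15 to 37 counts per library, Tnfrsf12a on 26 to 56 and Chst15 on 30 to 48. Hpcal1 was picked because it separated the groups, so genes close to its profile separate them largely by construction. That holds for Vsnl1 and Hpca as well. These distances are a description of 5 libraries, and nothing is read from them.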

How the data were processed

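The authors deposited a table of unnormalized counts, with genes in rows and libraries in columns. STAR 2.7.5c and featureCounts 2.0.1 are listed in the submitters' processing notes beside edgeR 3.42.4, fastp 0.23.2, MultiQC 1.11 and FastQC 0.11.9, with GRCm38 and mm10 as builds. Per the labels' protocols, 5 ng of RNA entered each library. Settings, annotation and strand: not given in the sources used here. Ctrl columns numbered 1 and 2 were read as saline replicates 1 and 2, and DTX columns were assigned to the group alone. A further control column, 1 in number, matched no sample label and was not analysed here, so saline means, SDs and overlaps rest on 2 libraries.

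Counts were compared with edgeR 4.0.16 in R 4.3.3, with TMM scaling, filterByExpr with a minimum count of 10, the robust quasi-likelihood F test and Benjamini-Hochberg adjustment over all genes at 0.05. Levels are TMM-scaled CPM. Alternatives were other scalings and filters, DESeq2 1.42.0, limma-voom (limma 3.58.1), the likelihood ratio test and each library left out. Marker sums were tested by exact permutation, two-sided. The sample titles number the libraries within each group, but nothing says that these numbers stand for separate animals. The spread behind each p-value may therefore be technical. Library pairs were compared by a chi-square test of counts over genes with at least 20 counts.

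Members and gene lists were chosen with earlier results of these data known. Named were the members, Ccr2, the 4 genes of smallest p in each list, a few abundant markers and the 5 profiles nearest to Hpcal1 by log2 CPM with a prior count of 2. Kcnd2 and the genes that passed the test were named after their values were seen, and so was the scaling by neuron markers chosen. Exon lengths, positions and coding sequences come from GENCODE M21, promoters from RefSeq on GRCm38.p6, and coding alignments were made with Biopython 1.88.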

Additional observations from a re-analysis of the deposited data

How the results depend on the processing

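In the main fit all 6 members had a log2 fold change above 0, where 50.4% of all genes tested did so. All 6 did in 11 of the 13 alternative settings, and 5 did in the remaining ones. Ncald was at -0.036 without DTx-labelled library 6A and ranged over -0.079 to 0.20 with a library left out. As the members were chosen with this contrast known, nothing is read from these counts. The count of members without overlap and with DTx higher was 4 under the RLE, upper-quartile and total-count scalings (11.5% to 12.5% of all genes), 3 relative to neuron markers, and 4 or 5 with a library left out, where 15.4% to 33.3% of all genes did so. The number of genes past the threshold was 5 under the other scalings and filters and with limma-voom, 111 with DESeq2 and 93 with edgeR's likelihood ratio test, and 3 to 13 with a library left out (3 without 6A, 13 without 7A). Of the members, Hpcal1 and Vsnl1 were among the calls of DESeq2 and of the likelihood ratio test, and 0 members were called elsewhere. Among genes of the lists, Metap1 ranged over -0.14 to 0.23 and Nmt1 over -0.33 to 0.25 with a library left out. The cause was not tested. No paired analysis was possible because the DTx columns carry none of the replicate numbers of the labels. With 3 and 2 libraries, an exact permutation test cannot go below p = 0.1.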
